A study of Homo sapiens with 24 samples.

Results

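The 8 genes described here are the mitochondrial genes for subunits of respiratory complexes I and III: MT-ND1, MT-ND2, MT-ND3, MT-ND4, MT-ND4L, MT-ND5 and MT-ND6, which encode membrane subunits of complex I (NADH dehydrogenase), and MT-CYB, which encodes cytochrome b of complex III. They were taken by name, by mapping the gene identifiers of the deposited table to symbols, and are 8 of the 13 mRNAs of the human mitochondrial genome. All 8 passed the filter on low counts, among 18242 genes tested of 60230 in the table. Mitochondrial DNA is transcribed from both strands into long precursors, which are cut at the tRNAs between the genes into mRNAs and rRNAs. MT-ND6 is the mRNA of the light-strand transcript, and the other members are cut from the heavy-strand transcript. Heavy-strand mRNAs carry short poly(A) tails, whereas the MT-ND6 mRNA is known to have little or no tail, which matters for RNA selected on poly(A).

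The tumors were xenografts in mice of AsPC-1, an established human pancreatic ductal adenocarcinoma line. Animals received 3 oral doses on alternate days, either vehicle, a mixture of DMSO and PEG400, or 6 mg/kg of IK-595, which the labels describe as a molecular glue acting on the kinases MEK and RAF. The 6 groups of 4 animals were vehicle at 2 h after the last dose and IK-595 at 2, 4, 8, 24 and 48 h. No vehicle tumors were taken after 2 h, which means that time since dosing differs too whenever a later group is set against vehicle, and the same 4 control tumors serve all these comparisons. All tumors are of 1 cell line. In bulk tumors, fewer cells of a type and less RNA per cell cannot be told apart. Mouse reads that resemble human genes may also have been counted, since no step for mouse reads is given in the sources used here.

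Total counts were 10.5 to 20.6 M (mega, the sum of all gene counts) per tumor, lowest in tumor 2 at 4 h. The vehicle tumors had 19.7 to 20.6 M and the 8 h tumors 11.3 to 14.9 M. DUSP6, a phosphatase gene induced by ERK signaling, was at 229 to 288 CPM in vehicle tumors, 4.58 to 12.9 CPM at 8 h and 226 to 297 CPM at 48 h. The 8 epithelial markers were above 0 in every tumor, with summed levels of 6117 to 16158 CPM. The 10 fibroblast markers summed to 30017 CPM in tumor 2 at 4 h and to 894 to 5175 CPM in the others. No fibroblast or skeletal muscle marker was at 0 in any tumor. The 8 skeletal muscle markers summed to 7.58 to 3519 CPM, with 2074 CPM or more in tumor 1 at 2 h, tumor 4 at 4 h, tumor 2 at 8 h and tumor 4 at 24 h.

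On the mitochondrial genome (GRCh38, chrM), the members span MT-ND1 at 3307 to 4262, MT-ND2 at 4470 to 5511, MT-ND3 at 10059 to 10404, MT-ND4L at 10470 to 10766, MT-ND4 at 10760 to 12137, MT-ND5 at 12337 to 14148, MT-ND6 at 14149 to 14673 and MT-CYB at 14747 to 15887. These genes have no introns, and MT-ND6 alone is annotated on the minus strand. MT-ND6 differs from the heavy-strand mRNAs in base composition: it holds 35.6% G and 7.05% C, whereas the 7 heavy-strand members hold 9.50% to 12.1% G and 29.5% to 36.0% C. The first 60 bases of MT-ND6 and of MT-ND5 (chrM:14614-14673, minus strand, and chrM:12337-12396, plus strand, GENCODE release 29) are printed to show this contrast, with the first codon in capitals.
MT-ND6: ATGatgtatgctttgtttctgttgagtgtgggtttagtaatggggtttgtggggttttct
MT-ND5: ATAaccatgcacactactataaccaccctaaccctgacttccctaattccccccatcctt

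As annotated, the genes MT-ND5 and MT-ND6 meet tail to tail, with 0 bases between their ends. Their last 40 annotated bases thus lie side by side on opposite strands (chrM:14109-14148, plus strand, and chrM:14149-14188, minus strand). Where the mRNAs themselves end was not read from these data. Each is printed 5′ to 3′ with its last codon in capitals.
MT-ND5: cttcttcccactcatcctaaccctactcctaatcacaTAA
MT-ND6: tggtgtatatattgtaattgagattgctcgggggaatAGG

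MT-ND4L and MT-ND4 lie on 1 mRNA in cells and overlap by 7 bases, shown in capitals in the last 40 bases of MT-ND4L and the first 40 of MT-ND4 (chrM:10727-10766 and chrM:10760-10799, plus strand).
MT-ND4L: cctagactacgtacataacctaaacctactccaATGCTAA
MT-ND4: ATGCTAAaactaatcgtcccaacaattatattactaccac
The library kit named in the labels does not mark strand and the strand setting of the counting is not given in the sources used here. Reads from the MT-ND6 mRNA and from RNA of the opposite strand over that gene may therefore not be told apart.

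Levels were compared between members per length, as TPM, which scales counts by transcript length and by the total of each library. In vehicle tumors MT-ND3 was at 12478 ± 1132 TPM (mean ± SD, n = 4), MT-ND4 at 10338 ± 1702, MT-ND2 at 10085 ± 1015, MT-ND1 at 9322 ± 1009, MT-CYB at 9314 ± 1099, MT-ND6 at 8372 ± 895, MT-ND4L at 5694 ± 1161 and MT-ND5 at 4033 ± 499. Each gene in this order from MT-ND3 to MT-CYB overlapped the next between tumors, and so did MT-ND4L and MT-ND5, while MT-ND4L and MT-ND6 did not overlap. MT-ND3 was the highest of the 8 in 23 of 24 tumors and MT-ND5 the lowest in 21 of 24. MT-ND6 took rank 4 to 6 of 8 in vehicle tumors and rank 2 in 13 of 20 IK-595 tumors, among them all 4 at 2 h and all 4 at 48 h. TPM of short genes rests on an estimated effective length: a count of MT-ND4L per TPM was 5.91% to 6.53% of that of MT-ND5, although its annotated length of 297 bases is 16.4% of the 1812 bases of MT-ND5.

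**Figure D1:**
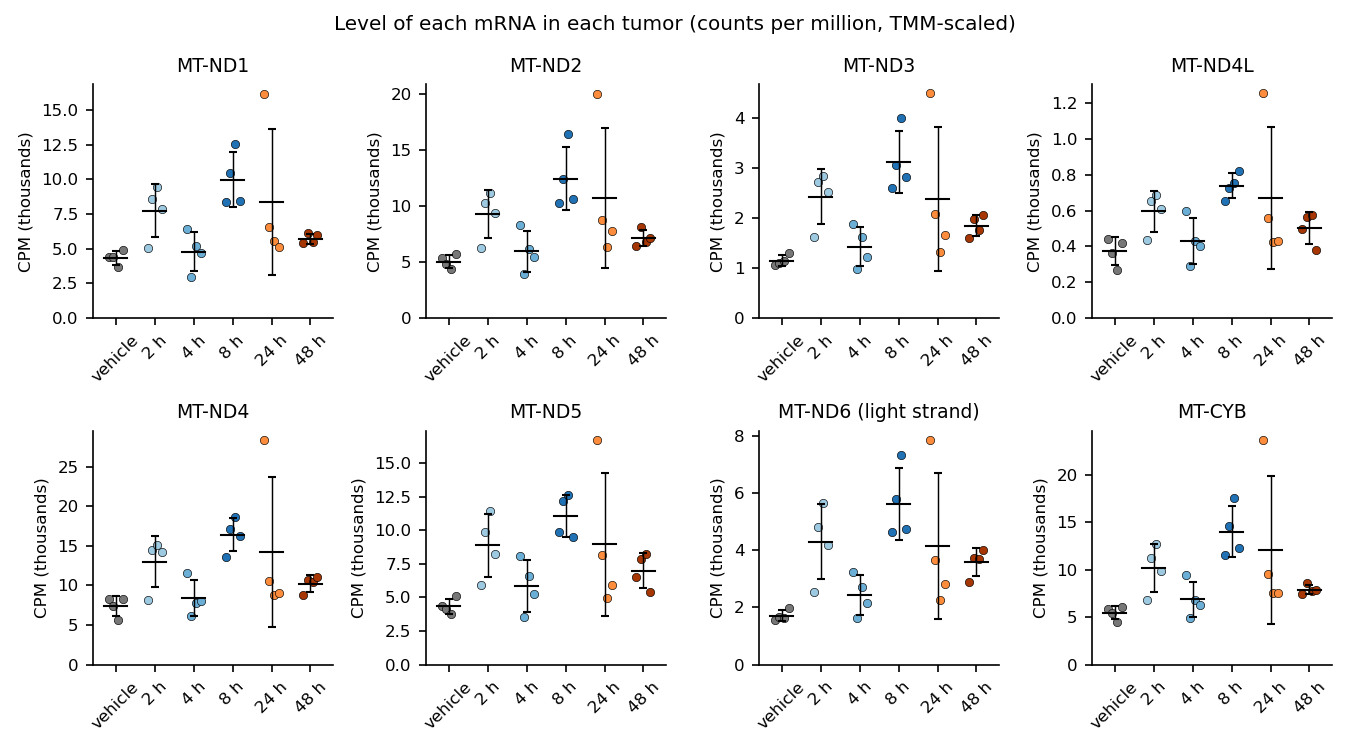
Level of each of the 8 mRNAs in each of the 24 tumors, as TMM-scaled CPM (axis in k), with each axis starting at 0; points are tumors, lines are group means and bars are SD (n = 4). The 8 h tumors lie above the vehicle tumors for every gene, and tumor 1 at 24 h is the highest of all tumors for every gene.

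Changes were tested on counts, and levels across tumors are given as CPM, the count scaled to library size after TMM adjustment. MT-ND6, the light-strand complex I subunit, had the largest log2 fold change of the 8 at every time. Its levels were 1573, 1665, 1611 and 1992 CPM in the vehicle tumors. At 2 h they were 2544, 4801, 5650 and 4186 CPM, and at 4 h 3219, 1620, 2706 and 2150 CPM. At 8 h they were 4627, 5791, 7333 and 4739 CPM. All 2 h and 8 h tumors lay above all vehicle tumors, while tumor 2 at 4 h lay among them. At 24 h MT-ND6 was at 7852, 3670, 2240 and 2816 CPM and at 48 h at 2885, 3732, 3691 and 4011 CPM, again above every vehicle tumor. Against vehicle its log2 fold change (± SE, n = 4 per group) was 1.33 ± 0.30 at 2 h (edgeR adjusted p = 0.00311) and 0.50 ± 0.30 at 4 h (adjusted p = 0.271). It was 1.72 ± 0.31 at 8 h (adjusted p = 0.000123), then 1.28 ± 0.30 at 24 h (adjusted p = 0.00367) and 1.07 ± 0.30 at 48 h (adjusted p = 0.0255). MT-ND6 thus rose at 2, 8, 24 and 48 h by the threshold of an adjusted p under 0.05, but not at 4 h.

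MT-ND5, the last complex I gene of the heavy-strand transcript and one of its proton-pumping subunits, was at 4325, 4166, 3739 and 5077 CPM in vehicle tumors. It was at 5925, 9906, 11452 and 8265 CPM at 2 h, and at 8072, 3510, 6633 and 5236 CPM at 4 h. At 8 h it was at 9912, 12174, 12650 and 9488 CPM. The 2 h and 8 h tumors all exceeded the vehicle tumors. At 24 h it was at 16744, 8131, 4971 and 5959 CPM, where tumor 3 fell within the vehicle range, and at 48 h at 6538, 7881, 8216 and 5391 CPM. MT-ND5 rose at 2 h by 1.04 ± 0.30 on the log2 scale (adjusted p = 0.014), at 8 h by 1.35 ± 0.30 (0.00102) and at 24 h by 1.05 ± 0.30 (0.0125), with 0.44 ± 0.30 at 4 h (0.343) and 0.70 ± 0.30 at 48 h (0.154).

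MT-CYB, the complex III member, was at 5905, 5473, 4538 and 6031 CPM in vehicle tumors. It was at 6844, 11236, 12763 and 9845 CPM at 2 h and at 9438, 4947, 6822 and 6270 CPM at 4 h. It was at 11601, 14618, 17557 and 12288 CPM at 8 h. Vehicle and IK-595 tumors did not overlap at 2 h or 8 h, and overlapped at 4 h through tumor 2. At 24 h MT-CYB was at 23672, 9561, 7576 and 7543 CPM and at 48 h at 7419, 8600, 7741 and 7849 CPM, above vehicle at both times. It rose by 0.89 ± 0.29 at 2 h (adjusted p = 0.0253), 1.35 ± 0.29 at 8 h (0.000704) and 1.14 ± 0.29 at 24 h (0.00569). The 48 h difference of 0.53 ± 0.29 (0.284) did not pass.

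MT-ND4, another proton-pumping subunit of complex I and the member with the most counts, was at 8264, 7429, 5596 and 8282 CPM in vehicle tumors. It was at 8153, 14449, 15138 and 14166 CPM at 2 h and at 11517, 6146, 7789 and 7995 CPM at 4 h. It was at 13578, 17153, 18586 and 16246 CPM at 8 h. Tumor 1 at 2 h lay within the vehicle range and the 8 h tumors lay above it. At 24 h MT-ND4 was at 28326, 10556, 8725 and 9099 CPM and at 48 h at 8740, 10709, 10375 and 11075 CPM. It rose by 0.81 ± 0.29 at 2 h (adjusted p = 0.0443), 1.15 ± 0.30 at 8 h (0.00331) and 0.94 ± 0.30 at 24 h (0.0213).

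The small subunit gene MT-ND3 was at 1056, 1095, 1146 and 1293 CPM in vehicle tumors and at 2602, 3061, 4000 and 2821 CPM at 8 h, without overlap. Its range was 1630 to 2847 CPM at 2 h, 990 to 1874 CPM at 4 h, 1313 to 4494 CPM at 24 h and 1596 to 2052 CPM at 48 h, so that only the 4 h tumors overlapped vehicle. Its log2 fold changes were 1.08 ± 0.28 at 2 h (adjusted p = 0.00718), 1.44 ± 0.28 at 8 h (0.000296) and 1.06 ± 0.28 at 24 h (0.00761). MT-ND4L, the other small subunit gene and the member with the fewest counts, was at 443, 363, 268 and 420 CPM in vehicle tumors and at 653, 724, 753 and 821 CPM at 8 h. It reached 433 to 687 CPM at 2 h, 289 to 599 CPM at 4 h, 424 to 1254 CPM at 24 h and 379 to 576 CPM at 48 h, and at these times it overlapped vehicle. Its change was the smallest of the 8 at 2, 8 and 24 h: 0.67 ± 0.28 at 2 h (adjusted p = 0.0752, not passed), 0.98 ± 0.28 at 8 h (0.00671) and 0.84 ± 0.28 at 24 h (0.0283).

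MT-ND1, whose product lies where the membrane arm of complex I meets the arm that binds NADH, was at 4367, 4429, 3687 and 4902 CPM in vehicle tumors and at 8361, 10488, 12548 and 8471 CPM at 8 h. It rose by 0.83 ± 0.29 at 2 h (adjusted p = 0.0373), 1.20 ± 0.29 at 8 h (0.00213) and 0.94 ± 0.29 at 24 h (0.0192). MT-ND2, a proton-pumping subunit like MT-ND4 and MT-ND5, was at 5324, 4811, 4373 and 5686 CPM in vehicle tumors and at 10246, 12437, 16455 and 10684 CPM at 8 h. It rose by 0.88 ± 0.28 at 2 h (adjusted p = 0.0249), 1.30 ± 0.29 at 8 h (0.000841) and 1.09 ± 0.28 at 24 h (0.00692). MT-ND1 spanned 5065 to 9479 CPM at 2 h and 5402 to 6105 CPM at 48 h, and MT-ND2 6257 to 11164 CPM and 6482 to 8158 CPM, in all cases above every vehicle tumor. Neither gene passed at 4 h or 48 h, where the log2 fold changes were 0.14 and 0.40 for MT-ND1 and 0.24 and 0.50 for MT-ND2.

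**Figure D2:**
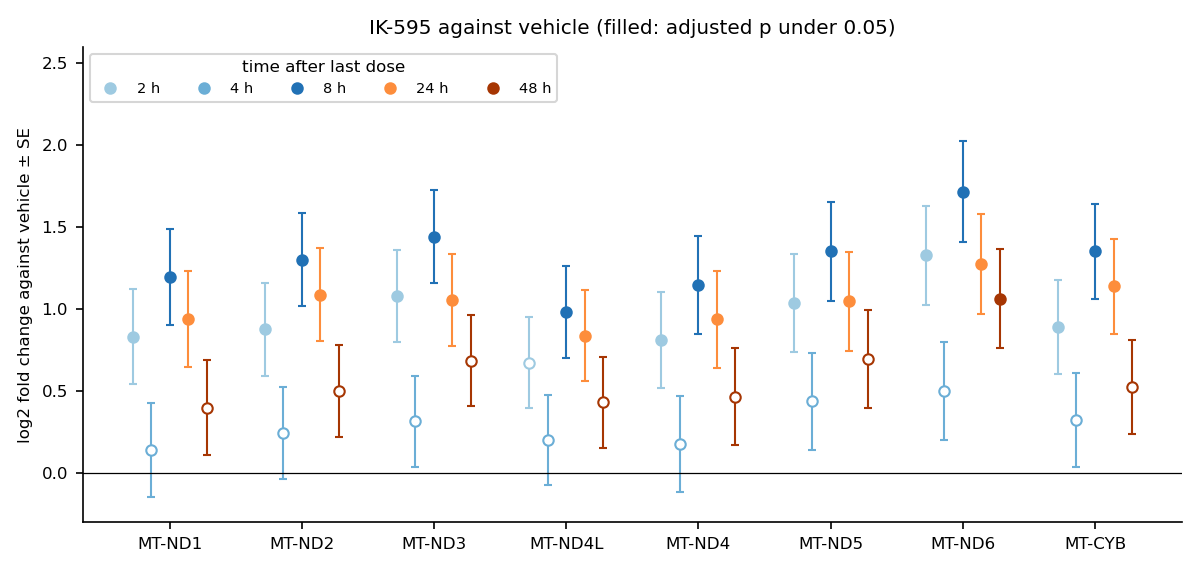
Log2 fold change against vehicle of each mRNA at each time after the last dose, from edgeR, with bars of ± 1 SE (n = 4 tumors per group); filled points have an adjusted p under 0.05. All 8 are filled at 8 h and 24 h, none at 4 h, and MT-ND6 alone at 48 h.

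At 2 h 7 of 8 members passed the test upward, beside 13.4% of all genes tested, and their median log2 fold change was 0.88 beside 0.05 over all genes. No overlap between the 2 h and vehicle tumors was seen for 6 members, beside 15.6% of all genes. The 2 h count rested on single tumors. It was 3 without vehicle tumor 2, 3 without vehicle tumor 3 and 3 without 2 h tumor 2. It was 2 without 2 h tumor 3 and 4 without 2 h tumor 4. In the same order, genes called higher in these fits numbered 1575 of 18676, 2106 of 18668, 1781 of 18726, 1730 of 18746 and 1596 of 18645. MT-ND6 and MT-ND3 were called when 2 h tumor 3 was left out. Without 2 h tumor 1, the lowest of that group and the one with 3519 CPM of muscle markers, all 8 were called. In that fit 2581 of 18690 genes were called higher. The part of the muscle markers in these values was not tested.

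At 4 h no member passed with edgeR (background 6.74%), none had an unadjusted p under 0.05, and DESeq2 and limma-voom called none either. The median was 0.28 beside 0.03 over all genes, and 0 members were free of overlap (background 7.93%). Tumor 2 at 4 h, which had the fewest counts and the most fibroblast marker RNA, was the lowest of all 24 tumors in CPM for 4 of the 8 members. Without it the log2 fold changes were 0.32 for MT-ND4 to 0.67 for MT-ND6, and still none passed. The part of the fibroblast markers in these values was not tested.

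At 8 h all 8 members rose, beside 20.6% of genes tested, and no member overlapped vehicle, beside 20.4%. The median was 1.33 beside 0.07 over all genes, and the range was 0.98 for MT-ND4L to 1.72 for MT-ND6, or 1.98-fold to 3.29-fold. The count stayed at 8 on leaving out any 1 of the 8 h or vehicle tumors. Muscle markers summed to 38.2 to 2974 CPM in the 8 h tumors and 42.5 to 430 CPM in the vehicle tumors. Tumor 3 at 8 h, the highest of its group for every member except MT-ND4L, had 55.6 CPM. The part of the muscle markers in the 8 h values was not tested. At 24 h all 8 passed, beside 13.7%, with a median of 1.05 beside 0.06, and 6 did not overlap vehicle, beside 11.8%. The count of members that passed at 24 h was 2 without 24 h tumor 1 and 5 without vehicle tumor 3. In these fits 1881 of 18690 and 2109 of 18668 genes were called higher. At 48 h MT-ND6 alone passed, beside 5.52%, with a median over the members of 0.51 beside -0.01 over all genes. The 48 h tumors were nonetheless above every vehicle tumor for 7 of the 8 (background 10.2%), MT-ND4L being the exception. The call of MT-ND6 at 48 h was lost without vehicle tumor 1 (adjusted p = 0.0706), vehicle tumor 2 (0.061), 48 h tumor 2 (0.0671) or 48 h tumor 4 (0.0757), while its log2 fold change kept to 1.01 to 1.16 on leaving out each tumor. A fit of only the vehicle and 48 h tumors called 7 members, beside 1363 of 16268 genes called higher in that fit.

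Ordered by mean CPM, the groups ran vehicle, 4 h, 48 h, then 2 h and 24 h, then 8 h for each member, with 24 h below 2 h for MT-ND3 and MT-ND6 and above it for the other 6. Every neighbouring pair of groups in these orders overlapped between tumors. Between successive times the members rose from 4 h to 8 h, where all 8 passed (background 11.6%) with log2 fold changes of 0.78 ± 0.28 for MT-ND4L (adjusted p = 0.0414) to 1.21 ± 0.30 for MT-ND6 (0.00669). This count was 5 without 4 h tumor 2, 4 h tumor 4 or 8 h tumor 3, beside 1441 of 18673, 1317 of 18743 and 1095 of 18685 genes called higher. From 2 h to 4 h the changes were -0.47 for MT-ND4L to -0.83 for MT-ND6. None passed with edgeR in either direction (6.89% of all genes were called higher and 9.0% lower), although 5 had an unadjusted p under 0.05. DESeq2 called 2 lower, beside 1952 of 17141 genes. Leaving out 2 h tumor 1 or 4 h tumor 1 gave 2 lower calls, beside 1975 of 18690 and 1716 of 18661 genes. From 24 h to 48 h none passed (2.47% of all genes higher and 1.6% lower), 2 had an unadjusted p under 0.05, and DESeq2 called none.

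The tumor labelled replicate 1 at 24 h stood apart. It had the highest CPM of all 24 tumors for all 8 members, and the 13 mitochondrial mRNAs made up 27.0% of its counts against 12.5%, 10.3% and 11.2% in the other 24 h tumors. Its 8 members made up 10.8% of counts and its mitochondrial rRNAs 4.41%, both the highest of any tumor. Its total of 13.9 M counts was the lowest of its group, with 10.1 M counts outside the 13 mRNAs against 13.7 to 17.7 M in the other 3. Its muscle markers summed to 101 CPM and its fibroblast markers to 2927 CPM, inside the range of the other 24 h tumors. Its 6 myeloid markers summed to 46.0 CPM, below their 112 to 128 CPM, and its MALAT1 level of 18690 CPM was above their 5872 to 8960 CPM. The part of depth or of other cell types in these values was not tested.

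Without this tumor the 24 h log2 fold change was smaller for every member. MT-ND6 was then 0.76 ± 0.24 (adjusted p = 0.0268) and MT-CYB 0.57 ± 0.20 (0.0442), which still passed, beside 10.1% of all genes called higher in that fit. The other 6 did not pass: MT-ND2 was at 0.58 ± 0.21 (0.0547), MT-ND5 at 0.55 ± 0.24 (0.112), MT-ND3 at 0.54 ± 0.20 (0.0639), MT-ND4 at 0.35 ± 0.20 (0.244), MT-ND1 at 0.39 ± 0.21 (0.201) and MT-ND4L at 0.33 ± 0.21 (0.288). The comparison of 24 h with 8 h turned on the same tumor. With it, edgeR called no member (5.3% of all genes higher and 1.58% lower), none had an unadjusted p under 0.05, DESeq2 called none, and the changes ran from -0.14 for MT-ND4L to -0.44 for MT-ND6. Without it all 8 were called lower, beside 3.64% of all genes in that fit. The falls were 0.63 for MT-ND4L (adjusted p = 0.0497) to 0.94 for MT-ND6 (0.0117) on the log2 scale. Tumor 1 at 24 h stood apart by these same values, so leaving it out had to lower the 24 h mean of every member. The adjusted p-values without it therefore describe how far the result rests on 1 tumor and are not a separate test.

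**Figure D3:**
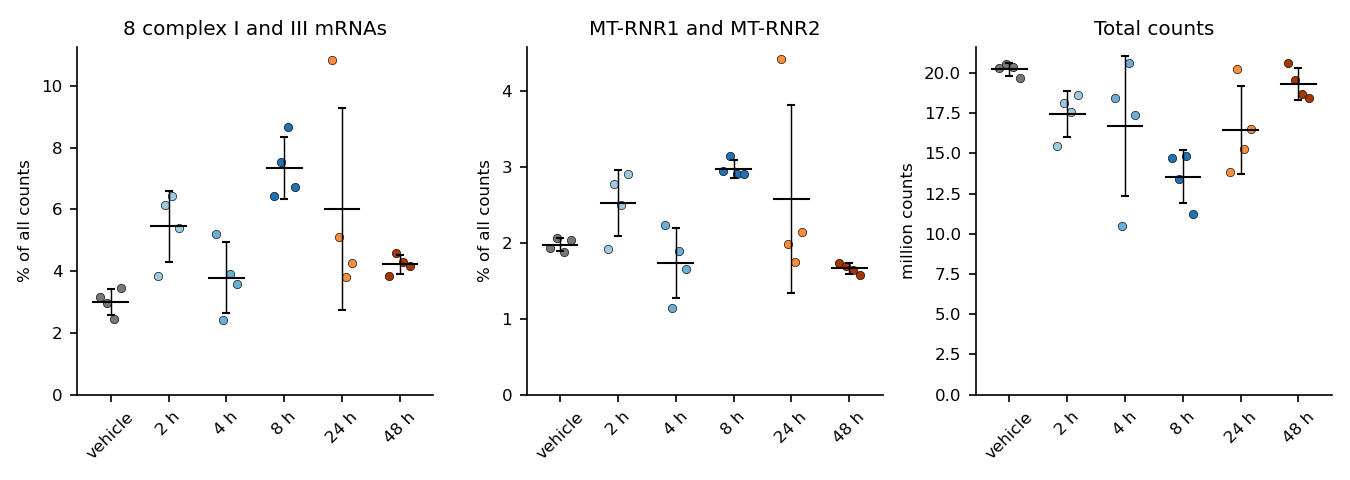
Share of all counts (%) taken by the 8 mRNAs and by the 2 mitochondrial rRNAs, and total counts (M), in each tumor, with group means and SD (n = 4). Vehicle tumors sit at 2.46% to 3.47% for the 8 mRNAs and 8 h tumors at 6.42% to 8.69%, and tumor 1 at 24 h stands at 10.8%.

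The 8 members took 3.01% ± 0.42 of all counts in the vehicle group (SD, n = 4 in each group). The 2 h group stood at 5.45% ± 1.15, the 4 h group at 3.78% ± 1.15 and the 8 h group at 7.35% ± 1.01. The later groups stood at 6.01% ± 3.26 (24 h) and 4.23% ± 0.31 (48 h). Vehicle tumors spanned 2.46% to 3.47% and overlapped only the 4 h group, whose lowest tumor was at 2.42%. The 8 h group had the lowest mean depth, 13.6 ± 1.66 M counts. The shallowest tumor, tumor 2 at 4 h, had the lowest share and the highest sum of fibroblast markers, 30017 CPM. The part of depth or of the fibroblast markers in these shares was not tested.

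The light-strand mRNA was compared with the heavy-strand mRNAs within each tumor, as the log2 ratio of MT-ND6 counts to the summed counts of the 12 heavy-strand mRNAs, which does not depend on library scaling. As the kit does not mark strand, MT-ND6 counts may include reads from RNA of the opposite strand. The ratio was -5.69, -5.49, -5.23 and -5.39 in vehicle tumors. It was -5.19, -4.94, -4.86 and -5.01 at 2 h and -4.94, -4.95, -4.81 and -5.04 at 8 h. These groups did not overlap with vehicle. At 4 h it was -5.24, -5.23, -5.03 and -5.26 and at 24 h -5.19, -5.00, -5.45 and -5.19, and both groups overlapped vehicle. At 48 h it was -5.10, -4.91, -4.83 and -4.67, above every vehicle tumor. In all, 16 of 20 IK-595 tumors had a higher ratio than any vehicle tumor, and none had a lower one.

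The mean ratio was higher than in vehicle by 0.45 ± 0.12 (SE) at 2 h, 0.52 ± 0.11 at 8 h and 0.57 ± 0.13 at 48 h, or 1.37-, 1.43- and 1.49-fold. Each had p = 0.0286 in an exact two-sided permutation test with 4 against 4 tumors, the smallest p these tumors allow, and 0.0476 after adjustment over the 5 times. The differences of 0.26 ± 0.11 at 4 h (exact p = 0.1143, adjusted 0.143) and 0.24 ± 0.13 at 24 h (exact p = 0.1429, adjusted 0.143) did not pass. On leaving out 1 tumor the adjusted p of the exact test was 0.0952 at 2 h without vehicle tumor 1 or 2 h tumor 2, 3 or 4. It was also 0.0952 at 8 h without vehicle tumor 1 or 8 h tumor 3, and at 48 h without vehicle tumor 1 or 48 h tumor 4. At 8 h without vehicle tumor 1 the exact p before adjustment stayed at 0.0286. The adjusted value rose there because the exact p at 2 h and 48 h went to 0.0571. Without vehicle tumor 3 the 4 h difference was 0.33 and passed the exact test (adjusted p = 0.0357). With MT-ND5, its tail-to-tail neighbour, as the only denominator, the 2 h difference was 0.27 and no longer passed (exact permutation test, adjusted p = 0.0714). With that denominator the 24 h difference of 0.22 passed, as did 0.35 at 8 h and 0.38 at 48 h (exact permutation test, adjusted p = 0.0476 each). The 4 h difference of 0.08 did not pass (exact permutation test, adjusted p = 0.343). The 48 h difference of 0.38 leaned on tumor 4. The log2 ratio to MT-ND5 was -0.43 in that tumor and -1.18, -1.08 and -1.15 in tumors 1 to 3 at 48 h. Vehicle tumors spanned -1.46 to -1.21. No test without tumor 4 was run with this denominator. The share of MT-ND6 among the counts of the 13 mRNAs went from 2.25% ± 0.29 in vehicle tumors to 3.31% ± 0.38 at 48 h. The heavy-strand mRNAs did not all keep their shares either. MT-CO2 held 4.81% to 5.36% of the 13 in vehicle tumors. Its highest shares at the 5 times were 4.38%, 4.56%, 4.37%, 4.21% and 4.45%, below every vehicle tumor. Whether the ratio follows strand or differences between single mRNAs was not tested.

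**Figure D4:**
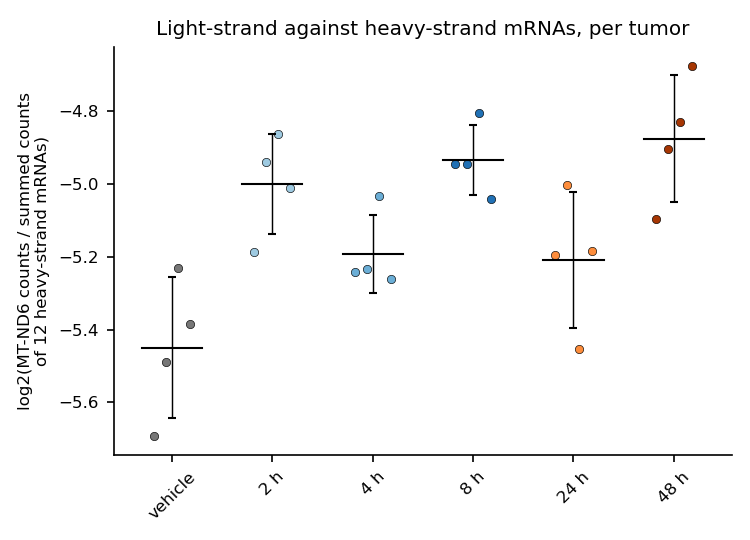
Log2 ratio of MT-ND6 counts to the summed counts of the 12 heavy-strand mRNAs in each tumor, with group means and SD (n = 4). Vehicle tumors lie between -5.69 and -5.23, and the 2 h, 8 h and 48 h tumors all lie above them.

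The balance among the heavy-strand members is given as a description with no test. The log2 ratio of MT-ND5 counts, far from the heavy-strand promoter, to those of MT-ND1, the first of the mRNAs, was -0.09 to 0.05 in vehicle tumors. This ratio is not scaled to length, and is compared only between tumors. It was 0.08 to 0.27 at 2 h, 0.17 to 0.36 at 4 h, 0.01 to 0.25 at 8 h, -0.16 to 0.31 at 24 h and -0.15 to 0.59 at 48 h. The 8 h, 24 h and 48 h groups overlapped vehicle. The ratio exceeded every vehicle tumor in 16 of 20 IK-595 tumors and was below all of them in 2, tumor 3 at 24 h and tumor 4 at 48 h. The log2 ratio of MT-ND4L to MT-ND4, which share an mRNA, ranged from -4.39 to -4.22 in vehicle tumors and from -4.87 to -4.13 in the IK-595 tumors, and 9 of those were below and 3 above all vehicle tumors. Because these genes share an mRNA, the spread of their ratio is not a difference between mRNAs. Across the 24 tumors the log2 CPM of any 2 of the 8 members correlated with Pearson r of 0.89 to 0.99 over 28 pairs, as a description of values that share library and depth.

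The other 5 mitochondrial mRNAs, for 3 subunits of complex IV (MT-CO1, MT-CO2, MT-CO3) and 2 of ATP synthase (MT-ATP6, MT-ATP8), had medians of 0.73, 0.18, 1.08, 0.88 and 0.41 at the 5 times. Of these 2 rose at 2 h, 5 at 8 h and 4 at 24 h, and none passed at 4 h or 48 h. MT-CO1 was at 0.92 ± 0.28 at 2 h (adjusted p = 0.017) and MT-CO2 at 0.48 ± 0.27 (0.202). The mitochondrial rRNAs passed at no time against vehicle: MT-RNR2, the large rRNA, had log2 fold changes of 0.42 ± 0.25 at 2 h (0.228), 0.61 ± 0.25 at 8 h (0.0515) and -0.17 ± 0.25 at 48 h (0.751), and MT-RNR1, the small rRNA, 0.37 ± 0.25 at 8 h (0.233). Both rRNAs rose from 4 h to 8 h, MT-RNR2 by 0.83 ± 0.25 (0.0186) and MT-RNR1 by 0.90 ± 0.25 (0.0121). The log2 ratio of the summed counts of the 8 members to MT-RNR2 was 0.56 to 0.89 in vehicle tumors and 1.01 to 1.71 in the IK-595 tumors, so all 20 treated tumors, those at 4 h included, lay above all vehicle tumors; no test was set for this ratio. The mitochondrial tRNAs were listed with 0% of counts in every tumor.

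Nuclear copies of mitochondrial genes can take reads from the members. MTND2P28, a copy of MT-ND2 on chromosome 1 (chr1:629640-630683), matches MT-ND2 at 98.4% of 1042 aligned bases in the reference, and MTND1P23 on chromosome 1 (chr1:629062-629433) matches MT-ND1 at 98.1% of 365. Of the counts given to MT-ND2 and this copy together, 0.657% to 1.09% went to the copy, and for MT-ND1 0.0462% to 0.106%. Adding the counts of the annotated copies to each gene left the differences in the strand ratio at 0.45, 0.26, 0.52, 0.24 and 0.57 at the 5 times.

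Counts of nuclear genes that fell are to be read beside the share of all genes tested that fell against vehicle, which was 13.6% at 2 h and 8.39% at 4 h. It was 23.7% at 8 h, 13.8% at 24 h and 4.46% at 48 h. Of 37 nuclear complex I subunits, 2 passed upward and 4 downward at 2 h, none at 4 h, 9 upward and 5 downward at 8 h, 4 downward at 24 h and none at 48 h, with medians between -0.13 and 0.08. NDUFA1, an accessory subunit, rose at 2 h (0.48 ± 0.13, adjusted p = 0.0108) and 8 h (0.69 ± 0.13, 0.000236). NDUFAB1, the acyl carrier protein of mitochondria, fell at 8 h by 0.76 (0.000825), and NDUFS1, the largest iron-sulfur subunit, by 0.69 (0.000841). Of 9 nuclear complex III subunits none rose, and 4 fell at 8 h, 1 at 24 h and 1 at 48 h. UQCRH, the hinge subunit, fell at 24 h by 0.58 (0.00163). Of 14 complex I assembly genes 1 fell at each of 2, 4 and 24 h, and 1 rose and 3 fell at 8 h, with NDUFAF4 down by 1.85 (6.06e-05) and NUBPL, which supplies iron-sulfur clusters, by 0.96 (0.00125). Of 6 complex III assembly genes 1 fell at each of 2, 8 and 24 h, LYRM7, a chaperone of the Rieske iron-sulfur protein, by 0.45 at 8 h (0.0129).

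Genes whose products transcribe mitochondrial DNA moved in both directions, 2 of 9 up and 2 of 9 down at 2, 8 and 24 h, 1 each way at 4 h and none at 48 h. POLRMT, the mitochondrial RNA polymerase, passed at no time, with 0.43 ± 0.18 at 2 h (adjusted p = 0.0778) and 0.16 ± 0.18 at 8 h (0.481). TFAM, which packages the DNA and starts transcription at its promoters, fell by 0.83 at 2 h (0.0068), 1.33 at 8 h (4.49e-05) and 0.73 at 24 h (0.0139). TFB2M, the other initiation factor, fell by 1.55 at 8 h (4.49e-05). MTERF2, a member of the mitochondrial termination factor family, rose at 2 h (1.24 ± 0.20, 0.000178), 4 h (1.38 ± 0.20, 3.46e-05), 8 h (1.81 ± 0.20, 4.96e-07) and 24 h (0.90 ± 0.20, 0.002). Of 9 genes of mitochondrial DNA replication 1 rose and 4 fell at 2 h, and falls numbered 2 at 4 h and 6 at 8 h, then 4 (24 h) and 2 (48 h). TWNK, the helicase, was down by 2.20 at 8 h (1.98e-06), TOP1MT, a topoisomerase, down by 0.79 (0.000501) and SSBP1, the single-strand binding protein, down by 0.58 (0.00224).

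LRPPRC, the RNA-binding protein that stabilizes heavy-strand mRNAs, fell by 0.72 at 2 h (adjusted p = 0.00234), 1.33 at 8 h (1.33e-06) and 0.77 at 24 h (0.00128). Of the 8 stability and decay genes 3 fell at 2 h, 5 at 8 h and 2 at 24 h, LRPPRC among them each time. Those at 8 h included PDE12, a poly(A) exonuclease (-1.02 ± 0.17, 4.69e-05), and PNPT1, a component of the mitochondrial degradosome (-0.66 ± 0.18, 0.00454), and none of the 8 rose against vehicle at any time. Of 13 processing genes 5 fell and none rose at 2 h, 1 fell and none rose at 4 h, 8 fell and 2 rose at 8 h, and 6 fell and 1 rose at 24 h. GRSF1, an RNA granule protein, was down by 1.11 at 8 h (1.4e-06), and the FASTK family proteins FASTKD2 by 1.04 (1.09e-05) and TBRG4 by 0.72 (0.000143). Of 6 regulators of mitochondrial biogenesis, PPRC1, a coactivator, fell at 2, 4 and 8 h, by 1.42 at 8 h (1.3e-05). The other calls in that list, named after their values were seen, were a fall of GABPA at 8 h (-0.54 ± 0.16, 0.0071) and rises of PPARGC1B at 24 h (0.75 ± 0.26, 0.0358) and ESRRA at 48 h (0.44 ± 0.11, 0.0145). At 4 h LRPPRC was at -0.24 ± 0.16 (0.338) and TFAM at -0.37 ± 0.21 (0.245), while MTERF2 rose and PPRC1 fell at that time. The part of any of these nuclear genes in the members' values was not tested.

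**Figure D5:**
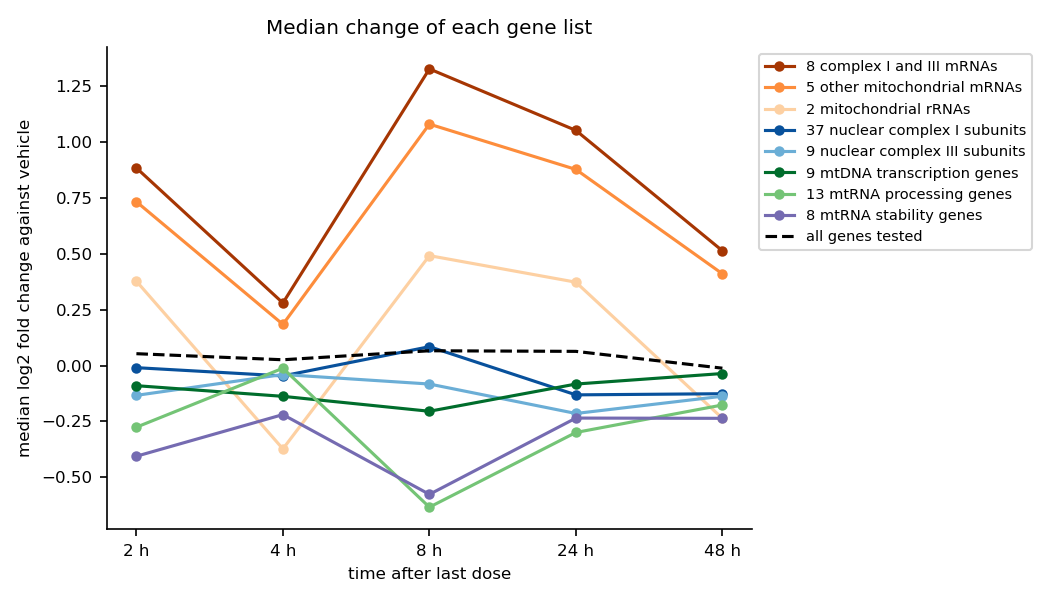
Median log2 fold change against vehicle of 8 gene lists at each time after the last dose, with the median of all 18242 genes tested as a dashed line. The 8 complex I and III mRNAs have medians of 0.88, 0.28, 1.33, 1.05 and 0.51, and the nuclear complex I and III subunits lie between -0.21 and 0.08.

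The genes outside the mitochondrial genome whose log2 CPM followed MT-ND6 most closely over the 24 tumors, among 10420 genes with a mean log2 CPM of at least 3, were AC010503.4, an antisense transcript (Pearson r = 0.96), IDUA (0.95), C1QTNF12 (0.95), MALAT1 (0.95) and HDAC10 (0.95). For MT-ND4, standing for the heavy strand, they were ZNF692 (0.94), INO80E (0.94), NME3 (0.94), ARRDC1-AS1 (0.94) and PRR14 (0.93). MALAT1 and NEAT1 are long noncoding RNAs kept in the nucleus. MALAT1 spanned 3296 to 5147 CPM in the vehicle group, 6904 to 14414 CPM in the 2 h group and 2750 to 7382 CPM in the 4 h group. It spanned 9830 to 18804 CPM in the 8 h group, 5872 to 18690 CPM in the 24 h group and 6615 to 12261 CPM in the 48 h group. Its group means ran vehicle, 4 h, 48 h, 24 h, 2 h and 8 h from low to high, as did those of MT-ND6. Of 3 nuclear-retained RNAs, 2 rose at 2, 8 and 24 h: MALAT1 by 1.41 ± 0.34 (adjusted p = 0.00494), 1.60 ± 0.35 (0.000785) and 1.24 ± 0.34 (0.0104), and NEAT1 by 0.93 ± 0.27 (0.015), 1.12 ± 0.27 (0.00203) and 1.03 ± 0.27 (0.00749). KCNQ1OT1 passed at no time. The part of these RNAs, and of what they share with the members in a library, in the members' values was not tested.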

How the data were processed

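The authors deposited an estimated count and a TPM value for each gene and tumor. The submitters' processing notes name Salmon 0.14.1, bcl2fastq 2.17 and FastQC 0.12.1, and the build GRCh38.p13. The sources used here do not give the annotation release, the strand setting, or whether mouse reads were taken out. Estimated counts were rounded for the tests. Gene identifiers were matched to GENCODE release 29 (57972 of 60230) and otherwise to a table of symbols, which left 11 unnamed. Coordinates and sequences are from GENCODE release 29 on GRCh38.

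Genes were kept by filterByExpr and fitted over all 24 tumors, with TMM scaling and group as the only term, with the robust quasi-likelihood method of edgeR 4.0.16 (R 4.3.3). Adjustment was by Benjamini-Hochberg over 18242 genes, separately in 9 comparisons, and an adjusted p in the text that is not called exact is from that fit. CPM was computed from counts and TMM-scaled library sizes, and log2 CPM with a prior count of 2. The strand ratio was compared by an exact permutation test, in Python 3.11.15 with scipy 1.17.1. The fit was tested on simulated data with known changes.

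The members and gene lists were chosen with earlier results of these data known. Nuclear genes were named if called against vehicle in at least 2 comparisons with the same sign, at most 3 per list by smallest adjusted p, with POLRMT, TFAM and LRPPRC always named. DUSP6 was chosen after its values were seen. Alternatives were DESeq2 1.42.0, limma-voom (limma 3.58.1), limma trend on TPM values in log2 with a pseudocount of 1 or 0.1, other scalings and filters, mitochondrial genes left out of library sizes, only the groups compared, a replicate block and leaving out each tumor. Labels say that animals were separate, so n counts animals, and no pair of tumors in a group had identical columns. Groups were read from titles, as the time tag of treated tumors speaks of a vehicle dose.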

Additional observations from a re-analysis of the deposited data

Results flagged for a closer look

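In groups of 4 tumors, 1 tumor was set far from the other 3 in several values, by Dixon's test of the gap to the nearest tumor. About 1 in 20 groups is marked by chance, and 60 were examined. At 24 h tumor 1 was far above the others for MT-ND1 (16178 CPM), MT-ND4 (28326 CPM), MT-ND4L (1254 CPM), MT-CYB (23672 CPM) and the share of counts in the 13 mRNAs (27.0%). At 2 h tumor 1 was far below the others for MT-ND4 (8153 CPM). At 4 h the light-strand to heavy-strand log2 ratio of tumor 3 was far above the others (-5.03).

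The level of all 8 members in IK-595 tumors differed between 4 h and 8 h, by the direct comparison of these groups in edgeR. No vehicle tumors were taken at 4 h or 8 h, so IK-595 and time since dosing cannot be told apart here. The log2 differences were 1.06 for MT-ND1, 1.06 for MT-ND2, 1.13 for MT-ND3, 0.97 for MT-ND4, 0.78 for MT-ND4L, 0.92 for MT-ND5, 1.21 for MT-ND6 and 1.03 for MT-CYB. Without 4 h tumor 2, 4 h tumor 4 or 8 h tumor 3, 5 of the 8 passed. In these fits 1441 of 18673, 1317 of 18743 and 1095 of 18685 genes were called higher.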

How the results depend on the processing

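At 8 h all 8 members were called higher under every alternative run. By share, genes called higher at 8 h ran from 2815 of 36042 to 3577 of 13658. The first is without a low-count filter and the second with a filter of at least 50 counts in 4 tumors. Genes called with limma trend on log2(TPM + 1) and log2(TPM + 0.1) numbered 1659 and 1665 at 4 h, 1039 and 1026 at 48 h and 210 and 179 for 48 h against 24 h. Without a low-count filter 1763 genes were called for 4 h against 2 h, and members called were 2 at 2 h, 5 at 24 h and 0 at 48 h. Genes called higher in that fit numbered 1382 at 2 h, 1657 at 24 h and 688 at 48 h, of 36042 tested. With only the groups compared in the fit, 355 genes were called for 24 h against 8 h and 148 for 48 h against 24 h, and members called were 4 at 24 h and 7 at 48 h. Genes called higher in these fits numbered 1782 of 16667 at 24 h and 1363 of 16268 at 48 h. DESeq2 called 1524 genes for 48 h against 24 h and 2 members lower for 4 h against 2 h, beside 1952 of 17141 genes lower. Both TPM fits called 4 members at 2 h, beside 1176 and 1217 of 18242 genes called higher.

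On leaving out each tumor, genes called ranged from 963 to 1858 at 48 h, 1003 to 4240 for 4 h against 2 h, 3041 to 5172 for 8 h against 4 h, 629 to 2673 for 24 h against 8 h and 298 to 1362 for 48 h against 24 h. Members called higher ranged from 2 to 8 at 2 h, 2 to 8 at 24 h, 0 to 1 at 48 h and 5 to 8 for 8 h against 4 h. In the same order, genes called higher ranged from 1575 to 2581, 1782 to 3007, 581 to 1049 and 1095 to 2232. Members called lower ranged from 0 to 2 for 4 h against 2 h and 0 to 8 for 24 h against 8 h. Genes called lower in these 2 comparisons ranged from 605 to 1975 and 110 to 680. These fits tested 18645 to 18746 genes. Directions turned in 9 cases, all of values not called: without 4 h tumor 1, MT-ND1, MT-ND4 and MT-ND4L at 4 h (-0.0292, -0.0172 and -0.0003), and without 24 h tumor 1, MT-ND1, MT-ND3, MT-ND4, MT-ND4L, MT-ND5 and MT-ND6 at 48 h against 24 h (0.0044, 0.14, 0.12, 0.10, 0.15 and 0.31). The ranges of these were -0.0292 to 0.34 (MT-ND1), -0.0172 to 0.32 (MT-ND4) and -0.0003 to 0.37 (MT-ND4L) at 4 h, and -0.70 to 0.0044 (MT-ND1), -0.56 to 0.14 (MT-ND3), -0.63 to 0.12 (MT-ND4), -0.56 to 0.10 (MT-ND4L), -0.54 to 0.15 (MT-ND5) and -0.40 to 0.31 (MT-ND6) later.

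The strand ratio difference ranged on leaving out each tumor from 0.37 to 0.52 at 2 h, 0.18 to 0.33 at 4 h, 0.43 to 0.59 at 8 h, 0.16 to 0.32 at 24 h and 0.49 to 0.65 at 48 h, and 8 calls were lost and 1, at 4 h, gained. With MT-ND5 as denominator it was 0.27 at 2 h, no longer passed, and 0.22 at 24 h, newly passed. With the replicate number as a block (replicate block), the differences of 0.45, 0.52 and 0.57 at 2, 8 and 48 h had an exact sign-flip p of 0.125, the smallest that 4 pairs allow; the block left the members called at 7, 0, 8, 8 and 1. Tumors that share a number across groups deviated together (r over 0.1) in 20 of 60 pairs, with a mean r of -0.01, so the number was read as a name alone.

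Upper-quartile scaling moved the median log2 fold change of all genes from 0.07 to 0.21 at 8 h, with 4732 genes higher and 3371 lower in place of 3755 and 4328. It also gave 3077 higher and 2050 lower at 24 h (2493 and 2518), 2778 and 2112 for 8 h against 4 h (2114 and 2834) and 308 and 389 for 48 h against 24 h (451 and 291). The fit on log2(TPM + 1) gave 1176 and 2817 at 2 h (2438 and 2477), 1980 and 5149 at 8 h, 1398 and 2159 at 24 h, 1574 and 617 for 4 h against 2 h (1257 and 1642), 807 and 4002 for 8 h against 4 h and 762 and 97 for 24 h against 8 h (967 and 289), with all-gene medians of -0.20 to 0.16. No scaling changed the direction of a member's log2 fold change. Total counts of at least 10.5 M gave at least 3019 counts for each member in each tumor, so the spread between 4 tumors, not counting, limits the precision.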
